A study of Mus musculus with 6 samples.

Results

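Neurotransmitter transporters that carry glutamate and GABA were examined in whole-brain RNA of mice with or without an inducible neuronal deletion of Elavl1. This gene encodes HuR, which binds AU-rich RNA and alters its stability and translation. The set holds 9 genes of 22180 with a single symbol on the array, chosen by name: Slc1a1, Slc1a2, Slc1a3, Slc1a6, Slc17a6, Slc17a7, Slc17a8, Slc32a1 and Slc6a11. Each gene was read by the probeset with the highest mean log2 level among those that carry its symbol alone. All 9 passed the filter on dim genes and were among the 16635 genes tested.

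RNA from total brain was hybridised to 6 Affymetrix Mouse Gene 2.0 ST arrays, 1 for each sample. The 3 samples called control here are from mice of the genotype Thy1Cre-ERT2-EYFPHuRf/+, with 1 floxed and 1 intact Elavl1 allele, and the 3 called knockout are from Thy1Cre-ERT2-EYFPHuRf/f mice, with both alleles floxed. Every mouse of both groups carried the tamoxifen-inducible Cre with its yellow fluorescent reporter, received tamoxifen at 10 and 11 weeks of age, was of either sex, and was 91 days old at brain isolation. The Thy1 promoter drives Cre in neurons, so glia keep the gene by design, and the controls may themselves lack 1 allele in neurons. Labels describe separate samples without naming animals, so whether each sample is a different mouse is not stated, and p-values therefore reflect the spread between samples, which may be partly technical.

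Glutamate released by excitatory neurons is cleared by sodium-driven transporters of the SLC1 family, most of it by astrocytes, and GABA is cleared by members of the SLC6 family. Inside the nerve terminal, vesicles are filled by proton-driven carriers: the SLC17 family loads glutamate, and Slc32a1 loads GABA and glycine. Because each vesicular carrier marks a class of neuron, its transcript is also used as a label of excitatory or inhibitory cells. Loss of the astrocyte carrier Slc1a2 is a known feature of amyotrophic lateral sclerosis, and the series title names motor neuron disease.

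Array quality and labels were checked first. Array medians ran from 13.4 to 14.6 on the intensity scale. The targeted gene, Elavl1, was at a log2 level of 8.27 ± 0.26 in the 3 controls and 8.22 ± 0.046 in the 3 knockouts (mean ± SD), a difference within the spread of the control arrays. A single probeset reads it, whose place relative to the floxed part is unknown here, so it does not check the labels. All 10 pan-neuronal, 10 astrocyte, 8 cerebellar granule and 4 choroid plexus markers that could be read were bright enough to be tested. The filter passed 16635 of all 22180 genes, so this does not check the whole-brain label. The arrays numbered 3, control 3 and knockout 3, stood apart. Xist, expressed from the inactive X chromosome, had log2 levels of 7.69 and 7.68 there and 2.52 to 2.79 on the other 4 arrays, and the Y-linked Uty was at 2.95 and 3.16 against 7.22 to 7.53. Of all genes tested, 23.4% had both arrays numbered 3 above the other 4, and 20.6% had both below. Sex and any other property of these arrays cannot be told apart, and each group holds 1 of them.

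No transporter passed the test between knockout and control brain. Adjusted over all genes, 0 of 9 passed in limma, where 0% of the 16635 genes did. At an unadjusted p below 0.05 the count was again 0 of 9, against 1.7% of all genes (0.932% higher and 0.763% lower in knockout). That share is 282 genes. Leaving out control 3 gave 574, leaving out knockout 3 gave 466 and leaving out knockout 2 gave 164, and the replicate number as a block gave 806. The groups overlapped in all 9, where 5.7% of genes showed no overlap. Fitted values lay above 0 for 8 and below 0 for 1, with a median log2 fold change of 0.066, where 54.8% of genes lay above 0 and the median over all genes was 0.013; without knockout 3 the median of the 9 was -0.045, and without control 1 it was 0.011. How tightly the genotype difference was bounded varied from gene to gene, with some transporters nearly constant and some wide apart between arrays of the same group.

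**Figure D1:**
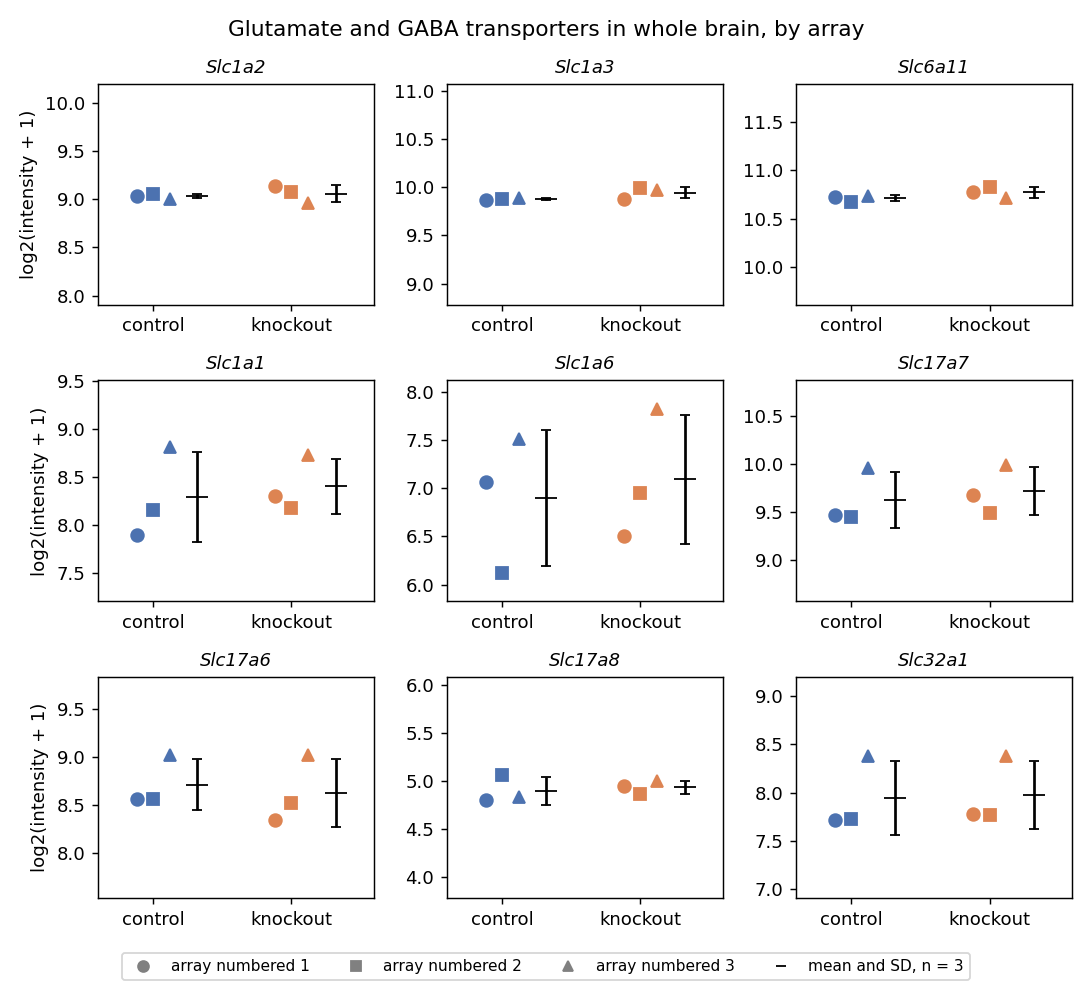
Level of each transporter, as log2(intensity + 1) after quantile normalization, on each of the 3 control and 3 knockout arrays, with symbols for the replicate number and black bars for the group mean and SD; every panel spans the same height. Slc1a2, Slc1a3 and Slc6a11 lie nearly level over all 6 arrays, while triangles for the arrays numbered 3 lie above the rest in Slc1a1, Slc1a6, Slc17a7, Slc17a6 and Slc32a1.

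Promoter sequence is shown for 3 transporters whose arrays numbered 3 stood high together, Slc1a1, Slc17a6 and Slc17a7, and for 2 that stayed level, Slc1a3 and Slc6a11. Each is the stretch of 150 bases just before the transcript start, from RefSeq on GRCm38.p6, 5′ to 3′ along the gene, and capitals mark the GC box GGGCGG or its reverse CCGCCC, a sequence bound by Sp-family factors. All 9 transporters matched an entry.
Slc1a1: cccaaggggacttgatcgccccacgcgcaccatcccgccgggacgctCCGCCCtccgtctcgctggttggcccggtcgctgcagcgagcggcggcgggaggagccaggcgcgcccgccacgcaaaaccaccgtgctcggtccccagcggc
Slc17a6: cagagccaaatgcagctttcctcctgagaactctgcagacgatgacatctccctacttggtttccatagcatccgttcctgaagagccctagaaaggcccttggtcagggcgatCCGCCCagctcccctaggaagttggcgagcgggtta
Slc17a7: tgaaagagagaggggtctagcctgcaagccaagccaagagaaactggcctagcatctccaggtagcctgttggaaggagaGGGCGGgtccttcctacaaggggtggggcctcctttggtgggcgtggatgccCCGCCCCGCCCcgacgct
Slc1a3: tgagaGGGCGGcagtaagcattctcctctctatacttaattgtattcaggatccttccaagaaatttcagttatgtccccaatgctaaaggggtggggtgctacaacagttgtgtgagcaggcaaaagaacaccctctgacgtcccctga
Slc6a11: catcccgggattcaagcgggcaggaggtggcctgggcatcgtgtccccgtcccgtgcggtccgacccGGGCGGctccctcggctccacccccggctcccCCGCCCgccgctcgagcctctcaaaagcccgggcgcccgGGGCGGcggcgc
These stretches lie at chr19:28834985-28835134, chr7:51621680-51621829 and chr7:45163771-45163920 on the plus strand, at chr15:8710808-8710957 on the minus strand and at chr6:114131091-114131240 on the plus strand. For Slc1a2, Slc1a6 and Slc32a1 the table's start lies inside the gene as RefSeq bounds it, and their windows are not described. In the full window of 300 bases of the other 6, from 250 before to 50 after the start, the GC box was found on either strand 1 time for Slc1a1, 1 for Slc17a6, 3 for Slc17a7, 1 for Slc1a3, 4 for Slc6a11 and 0 times for Slc17a8, overlapping matches included, and 35.7% of the 32851 windows in the table hold it. CpG pairs numbered 32 in the windows of Slc1a1 and Slc6a11, more than in most promoters (median 7), and 3 in that of Slc1a3. The TATA box TATAAA, in either orientation, was found for Slc1a3 alone among these 6 and in 13.6% of all windows. Among these 6, GC boxes and CpG-rich windows occurred in transporters that stood high on the arrays numbered 3 and in some that did not. Any link between promoter sequence and level on these arrays was not tested.

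Among the astrocyte carriers, Slc1a2, known as GLT-1 or EAAT2, clears most of the glutamate of the forebrain. Its log2 levels were 9.04, 9.06 and 9.01 on control arrays 1 to 3 and 9.14, 9.07 and 8.97 on knockout arrays 1 to 3. All values lay within 0.17 of each other, and knockout arrays held both the highest and the lowest. The log2 fold change was 0.025 with a standard error of 0.10, and the 95% confidence interval ran from 0.864-fold to 1.20-fold (limma, unadjusted p = 0.812, adjusted p = 1.00). Without knockout 1 the value was -0.015.

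Slc1a3, or GLAST, is the glutamate carrier of astrocytes and of the Bergmann glia of the cerebellum. Control arrays 1 to 3 read 9.87, 9.87 and 9.89 on the log2 scale and knockout arrays 9.88, 9.99 and 9.97. Controls agreed to within an SD of 0.011, the smallest group SD of any of the 9 transporters, and knockout 1 fell among them. Its fold change was 0.069 ± 0.097 (log2, SE), with an interval of 0.896-fold to 1.23-fold (limma, adjusted p = 1.00). Slc6a11, or GAT-3, the GABA carrier of astrocytes, read 10.72, 10.67 and 10.73 on control and 10.78, 10.83 and 10.72 on knockout arrays. The fitted difference was 0.066 ± 0.098 (log2, SE), with an interval of 0.894-fold to 1.23-fold. In both genes the sign held in each of the 6 fits that left out 1 array. For these 3 glial carriers, the intervals held no gain above 1.23-fold and no loss below 0.864-fold in whole brain. Fewer cells of a type and less RNA per cell cannot be told apart in such bulk RNA.

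No astrocyte marker passed between the genotypes. Of 10 tested, 8 had values above 0 and 0 passed when adjusted, and their median was 0.053 on the log2 scale (0.18 without knockout 3, 0.15 without control 1 and 0.0075 without knockout 2). Gfap, the astrocyte intermediate filament, was at 0.15 ± 0.15 (SE) and the water channel Aqp4 at 0.10 ± 0.12. Summed intensity of the astrocyte markers ran from 6905 to 7562 in control and from 6889 to 8028 in knockout arrays. On the arrays numbered 3, 6 of the 10 markers lay below the other 4 arrays and 2 above, with a median difference of -0.38 over the 10. The same difference was -0.09 for Slc1a2, 0.027 for Slc1a3 and -0.026 for Slc6a11. Of the 3 glial carriers, Slc1a2 had both arrays numbered 3 below the rest, by a mean difference smaller than the span of 0.10 over the other 4.

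The neuronal glutamate carriers varied far more. Slc1a1, or EAAC1, is found on neuronal cell bodies and dendrites and also takes up cysteine. Controls read 7.90, 8.16 and 8.81 on the log2 scale, and knockouts 8.30, 8.18 and 8.73. Both arrays numbered 3 lay above the other 4, by 0.63 on average or 1.55-fold, and the groups overlapped fully. Knockout over control gave 0.11 ± 0.25 (log2, SE), with an interval of 0.722-fold to 1.62-fold (limma, adjusted p = 1.00). The sign turned without control 1 (-0.082) and without knockout 3 (-0.049), and the value was 0.37 without control 3.

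Slc1a6, or EAAT4, is the glutamate carrier of Purkinje cells, the output neurons of the cerebellar cortex. Its log2 levels were 7.06, 6.12 and 7.51 on control and 6.50, 6.95 and 7.83 on knockout arrays, the widest range of the 9 transporters at 1.71. Both arrays numbered 3 were highest, 2.01-fold above the other 4, but control 2 was also 0.94 below control 1. Knockout differed from control by 0.20 ± 0.42 (log2, SE), with an interval of 0.578-fold to 2.27-fold (limma, adjusted p = 1.00). With the replicate number as a block its standard error was 0.25. The sign turned without control 2 (-0.193) and without knockout 3 (-0.171), and the value was 0.50 without control 3 and 0.49 without knockout 1.

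Markers of 2 cerebellar cell classes were read beside Slc1a6. All 8 granule neuron markers were tested, and 6 had both arrays numbered 3 above the rest and none had both below, against 23.4% and 20.6% of all genes. Their summed intensity ran from 861.2 to 2430 in control and from 861.7 to 2572 in knockout arrays. The order of the 6 arrays by Slc1a6, from low to high, was control 2, knockout 1, knockout 2, control 1, control 3 and knockout 3. Among the genes of the lists, the same order was given by the granule neuron markers Fat2, a cadherin, and Zic1, a transcription factor, and by Slc38a1, a glutamine carrier that is on no cerebellar list; these 3 are named after their values were seen. Neurod1, another granule neuron marker, was highest on control 2, where Slc1a6 was lowest. Of the 5 Purkinje cell markers tested, Car8, Calb1 and Rgs8 had both arrays numbered 3 above the rest, while Pcp4 had both below and was highest on control 2. Summed intensity of the Purkinje markers was 6687, 6407 and 6519 in control and 5707, 6329 and 6888 in knockout arrays 1 to 3. In this sum, which the brightest markers weigh most, control 1 exceeded control 3. Each marker's log2 level minus its own mean over the 6 arrays gave medians of -0.05, -0.28 and 0.16 in control arrays 1 to 3. In knockout arrays 1 to 3 these medians were -0.49, -0.07 and 0.44, so that both arrays numbered 3 were highest. Between the genotypes the Purkinje markers had a median log2 fold change of -0.049, 5 of 5 below 0 and 0 of 5 past the threshold, and the median was 0.18 without knockout 1 and -0.286 without knockout 3. Granule neuron markers had a median of 0.033, which was -0.344 without knockout 3 and 0.31 without control 3. The part of cerebellar RNA in the Slc1a6 values was not tested.

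**Figure D2:**
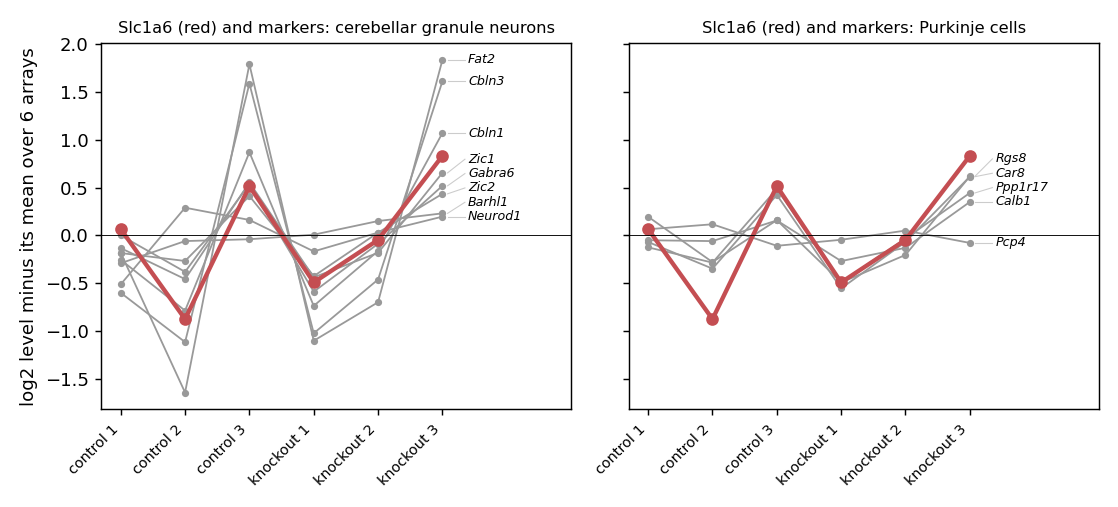
Log2 level of Slc1a6 (red) and of markers of cerebellar granule neurons (left) and Purkinje cells (right), grey, each minus its own mean over the 6 arrays; lines join arrays for legibility only. Slc1a6 dips on control 2 and knockout 1 and peaks on control 3 and knockout 3, and 6 of the 8 granule neuron markers have both arrays numbered 3 above the rest, while Neurod1 peaks on control 2.

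The vesicular glutamate carriers mark excitatory neurons. Slc17a7, or VGLUT1, fills vesicles of cortical, hippocampal and cerebellar granule neurons. On the log2 scale, controls read 9.47, 9.45 and 9.96 and knockouts 9.68, 9.49 and 9.99. Each knockout array lay above the control of the same number, by 0.21, 0.033 and 0.027, though no label states a pairing. That was also so for Slc1a3 and Slc32a1, and the share over all genes was not counted. For Slc17a7 the arrays numbered 3 lay 1.37-fold above the rest and set most of the spread. Its fold change was 0.09 ± 0.19 (log2, SE), with an interval of 0.787-fold to 1.44-fold (limma, adjusted p = 1.00). It turned to -0.045 without knockout 3, was 0.26 without control 3 and 0.21 without knockout 2, and was 0.0029 without control 2 and 0.011 without control 1.

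Slc17a6, or VGLUT2, is the carrier of thalamic, hypothalamic and brainstem excitatory neurons. It was the 1 transporter with a value below 0. Its log2 levels were 8.56, 8.56 and 9.02 on control and 8.34, 8.52 and 9.02 on knockout arrays. Knockout 1 was lowest, and the 2 arrays numbered 3 differed by 0.0053. The fitted value was -0.085 ± 0.21 (log2, SE), with an interval of 0.674-fold to 1.32-fold (limma, adjusted p = 1.00). Its sign turned without control 3 (0.067) and without knockout 1 (0.058), and the value was -0.282 without knockout 3 and -0.031 without knockout 2.

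Regional markers of the neurons that carry these genes gave values of similar size. Cortical and hippocampal excitatory markers had a median log2 fold change of 0.042, 4 of 7 above 0, and thalamic markers one of -0.038, 4 of 8 above 0, with 0 passing in either list. Leaving out 1 array turned both signs: the cortical median was -0.054 without control 1 and 0.14 without control 3, and the thalamic median was 0.048 without control 3 and -0.10 without knockout 3. The kinase Camk2a was at 0.12 ± 0.10 (SE) with all knockout arrays above all controls, as in 3.14% of all genes, and the cortical transcription factor Emx1 was at -0.34 ± 0.20. On the arrays numbered 3, the thalamic list had 4 of 8 markers above the rest and 1 below, and the cortical list 3 of 7 above and 1 below.

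Slc17a8, or VGLUT3, is found in serotonergic, cholinergic striatal and some GABAergic neurons. It was the dimmest of the 9, near the middle of all genes by mean level (percentile 51.4). Levels were 4.80, 5.07 and 4.83 on control and 4.95, 4.87 and 4.998 on knockout arrays (log2), with control 2 highest and control 1 lowest. Knockout over control gave 0.037 ± 0.12 (log2, SE), with an interval of 0.851-fold to 1.24-fold (limma, adjusted p = 1.00). It was -0.026 without both arrays numbered 3, -0.014 without control 1, and 0.12 without control 2. Unlike the other vesicular carriers of the set, it did not stand high on the arrays numbered 3 (difference -0.0046). Outside the set, the vesicular carrier Slc17a9 did not either (-0.0082), while Slc18a2 did (0.62). Among 5 serotonergic markers, 4 lay above 0, their median was 0.22 (0.38 without knockout 2, 0.15 without knockout 3), and 0 passed when adjusted. Tph2, the enzyme that commits tryptophan to serotonin synthesis, was at 0.80 ± 0.28 and the serotonin carrier Slc6a4 at 0.64 ± 0.29. Both were named for having the smallest p in the list, and the lowest of the 5 values was -0.059. The genotypes overlapped in all 5 markers, with control 3 above knockout 1 for Tph2 and for Slc6a4. Slc17a8 itself was at 0.037.

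Slc32a1, the vesicular inhibitory amino acid carrier, marks GABAergic and glycinergic neurons. Its log2 levels were 7.72, 7.73 and 8.38 on control and 7.77, 7.76 and 8.38 on knockout arrays. The arrays fell into 2 tight sets, those numbered 3 and the other 4. The other 4 arrays spanned 0.055, the 2 arrays numbered 3 differed by 0.0026, and the step between the sets was 0.64, or 1.56-fold. The fitted value was 0.031 ± 0.24 (log2, SE), with an interval of 0.695-fold to 1.503-fold (limma, adjusted p = 1.00). With the replicate number as a block the standard error was 0.082. Signs turned without control 1 (-0.081), control 2 (-0.077) or knockout 3 (-0.174), and the value was 0.25 without control 3. A second, dim probeset of the gene, at a mean log2 level of 3.87, had a difference of 0.21 between the genotypes.

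Markers of inhibitory neuron classes were read on the arrays numbered 3 beside Slc32a1, and no difference between the lists was tested. Of 7 forebrain interneuron markers 0 lay above the rest and 2 below, with a median difference of 0.0084. Of 5 striatal projection neuron markers 1 lay above and 2 below, with a median of -0.023. Of 7 glycinergic and brainstem markers 4 lay above and 1 below, where 23.4% of all genes lay above and 20.6% below. Slc6a5, the glycine carrier of glycinergic terminals, named here after its values were seen, read 7.91 and 8.14 on the arrays numbered 3 and 4.85 to 6.19 on the other 4. Between the genotypes, forebrain interneuron markers had a median log2 fold change of -0.083 and glycinergic and brainstem markers one of 0.043, with 0 of 7 past the threshold in each. The first stayed below 0 in the 6 fits that left out 1 array, from -0.133 to -0.029, but was 0.013 without both arrays numbered 3. The second was -0.171 without knockout 3, 0.17 without knockout 1 and -0.084 without both arrays numbered 3.

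**Figure D3:**
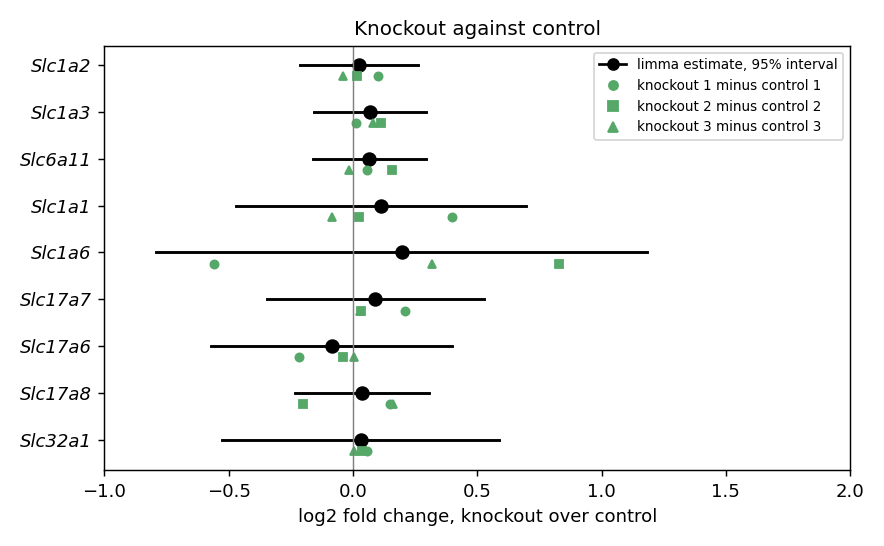
Log2 fold change of knockout over control for each transporter, with its 95% confidence interval from limma (black, 3 arrays a group), and the difference within each same-numbered pair (green). All intervals include 0; they are narrow for Slc1a2, Slc1a3, Slc6a11 and Slc17a8 and widest for Slc1a6.

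Across the set, 5 transporters had both arrays numbered 3 above the other 4, 1 had both below and 3 had neither, against 23.4% above and 20.6% below among all genes. The 5 were Slc1a1, Slc1a6, Slc17a6, Slc17a7 and Slc32a1, all genes of neurons, with differences from 0.45 to 1.01 on the log2 scale. Slc17a8, also a gene of neurons, had neither (difference -0.0046). By size of that difference Slc1a6 exceeded 98.8% of tested genes, Slc32a1 94% and Slc17a7 85.9%. Pan-neuronal markers showed the same direction, with 8 of 10 above and 0 below, and their summed intensity was 17584 to 17856 on the arrays numbered 3 and 12848 to 13611 on the others. Not all neuronal lists did: forebrain interneuron markers had 0 of 7 above and 2 below, and striatal projection neuron markers 1 of 5 above and 2 below. Endothelial markers also stood high: 5 of 6 above, summed intensity 374.5 to 407.3 against 119.2 to 169.4. Microglial markers stood low, 5 of 6 below, with summed intensity 604.3 to 638.5 against 833.2 to 870.6. The part of cell make-up in the transporter values was not tested.

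**Figure D4:**
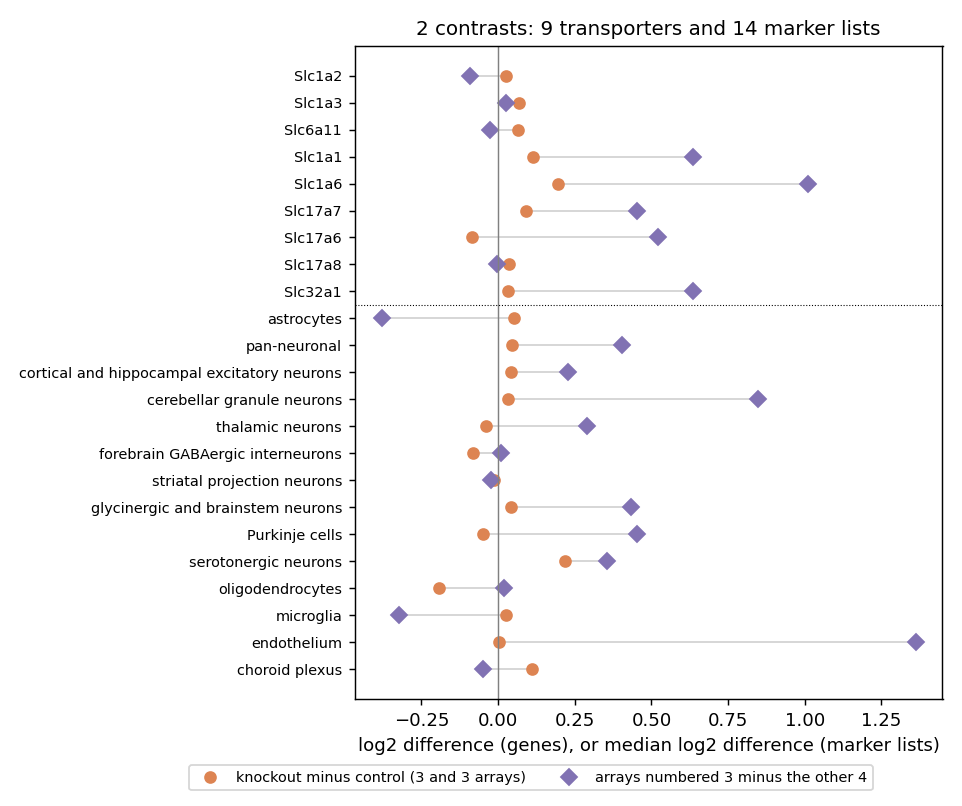
Knockout minus control (orange circles) and arrays numbered 3 minus the other 4 (violet diamonds), for the 9 transporters above the dotted line and as medians of 14 marker lists below it, on the log2 scale. Genotype values stay within 0.22 of 0 throughout, while the second contrast reaches 1.01 for Slc1a6, 0.85 for cerebellar granule markers and 1.36 for endothelial markers.

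The rest of the transport machinery was read from 6 further lists. Of their 58 tested genes, 0 passed in limma after adjustment, and 0 fell below 0.05 without it. Groups did not overlap in 1 of the 58, Slc17a9, a vesicular nucleotide carrier, lower at -0.20 ± 0.097 (SE), as in 2.55% of all genes. Medians of the lists ran from -0.037 to 0.083, and for each of the 6 lists the fits that left out 1 array gave medians of both signs.

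No enzyme that makes or breaks down the transmitters passed. Glul, the astrocyte glutamine synthetase that handles glutamate after uptake, was at 0.10 ± 0.11 (log2 fold change, SE), and its log2 level was 11.75 to 11.98 on all 6 arrays. Of 12 glutamate synthesis and glutamine cycle genes, 9 lay above 0, with Glud1, glutamate dehydrogenase, at 0.05 and the mitochondrial aspartate-glutamate carrier Slc25a13 at 0.19. Both GABA-synthesising enzymes lay just below 0, Gad1 at -0.025 ± 0.11 and Gad2 at -0.058 ± 0.22, and Aldh5a1, which completes GABA breakdown, was at 0.075 ± 0.12. All 4 genes of GABA synthesis and breakdown had both arrays numbered 3 above the rest, as Slc32a1 did. Gad2 was 0.56 higher there.

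Other carriers of the same families showed no common direction, with 6 of 11 above 0. Slc1a5, a neutral amino acid carrier, was at -0.24 ± 0.25 (SE). Slc3a2, the heavy chain that pairs with the cystine-glutamate exchanger, was at 0.11 ± 0.12, and Slc7a10, a small neutral amino acid carrier of astrocytes, at -0.085 ± 0.10. Slc6a13, a GABA carrier of the meninges, had levels of 5.26 and 5.82 on the arrays numbered 3 and 6.31 to 6.796 elsewhere, opposite in direction to Slc32a1. Its log2 fold change between the genotypes was 0.10 ± 0.41.

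Among 8 tested vesicular carriers and vesicle proteins outside the set, 6 lay above 0. Slc17a4 was at 0.31 ± 0.16 (SE), with all 3 control arrays and knockout 3 below 3.28, the limit set on a gene's mean level, and the monoamine carrier Slc18a2 was at 0.30 ± 0.27. Vacuolar proton pump genes, whose product powers vesicle filling, lay above 0 in 12 of 15, with a median of 0.038. The largest value there was 0.26 ± 0.17 for Atp6v1f, a dim gene, followed by Atp6v1g1 at 0.11 ± 0.16, and Atp6ap2 was at -0.085 ± 0.11. Of 8 partners and regulators of the carriers, 2 lay above 0. The ubiquitin ligase Nedd4l was at 0.15 ± 0.17, the astrocyte potassium channel Kcnj10 at -0.094 ± 0.11 and the scaffold Slc9a3r1 at -0.09 ± 0.21.

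The genes whose course over the 6 arrays lay closest to the vesicular carriers were sought among all 16634 other tested genes, by the mean absolute difference of log2 levels after subtracting each gene's own mean. For Slc17a7 these were 3010001F23Rik (0.012), Sipa1l2 (0.018) and Sfswap (0.020). For Slc17a6 they were Leng8 (0.025), Acvrl1 (0.032) and Nceh1 (0.035). For Slc32a1 they were Clasp1 (0.022), Ank2 (0.023) and Nr1d1 (0.023). None of the 9 is another transporter of the set. Within the set, Slc1a3 and Slc6a11 lay closest to each other (0.038), and among the neuronal genes Slc17a7 and Slc32a1 did (0.082).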

How the data were processed

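Expression was measured in total brain RNA (150 ng, TRIzol extraction, WT Plus labelling, per the labels' protocols) on 6 arrays. The authors deposited linear intensity values of 41340 probesets. The submitters' processing notes name MAS5; its version, background correction and scaling were not given in the sources used here. Intensities were taken as log2(intensity + 1) and quantile-normalized, and a fold understates changes of dim genes. Platform annotation gave 1 symbol to 23521 probesets and several to 1814, and 16005 are unnamed here. Of 22180 genes, the 5545 with a mean level below the 25th percentile were dropped. Table columns not used numbered 0, and no 2 arrays held identical values.

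Genotypes were compared in limma 3.58.1 under R 4.3.3 (two-sided, Benjamini-Hochberg at 0.05 over all tested genes), and the procedure was tested on simulated data. Figures used matplotlib 3.10.9 (Python 3.11.15). The comparison had no replicate block, which was run as an alternative. Deviations of same-numbered arrays from their group means correlated at 0.31, 0.37 and 0.75, above the limit of 0.1; control 1 with knockout 2 (0.40) and control 2 with knockout 1 (0.37) correlated as much, so that the numbers 1 and 2 are not told apart, and no label states a pairing.

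The 9 genes, 20 lists (156 of 176 genes on the array under 1 symbol), tests and alternatives were chosen with earlier results of these data known. Named were all 9 genes, the 3 list genes of each transport list with the smallest p, Slc6a13, Glul, Gad1 and Gad2, leading list markers, and the nearest genes by array course. Lists are described by counts and medians, with no test.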

Additional observations from a re-analysis of the deposited data

How the results depend on the processing

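Over 16 alternatives, 0 genes passed the adjusted threshold in any, and none of the 144 transporter values did; the unadjusted count was 282 of 16635, 465 without the filter, 88 in the upper 50% of genes and 806 with the replicate block. With Xist as a covariate it was 766, without both arrays numbered 3 it was 856, and leaving out 1 array gave 164 (without knockout 2) to 574 (without control 3). Pairing by replicate number as a block changed no call and left each value in place (Slc17a7 0.09 ± 0.089, unadjusted p = 0.351; Slc1a6 0.20 ± 0.25). In 131 of 144 values the sign held, and 13 turned, 12 of them in fits that left out 1 array; the other was Slc17a8 without both arrays numbered 3 (-0.026). Leaving out 1 array gave ranges of -0.082 to 0.37 for Slc1a1, -0.015 to 0.071 for Slc1a2, 0.048 to 0.10 for Slc1a3, -0.193 to 0.50 for Slc1a6, -0.282 to 0.067 for Slc17a6, -0.045 to 0.26 for Slc17a7, -0.014 to 0.12 for Slc17a8, -0.174 to 0.25 for Slc32a1 and 0.038 to 0.095 for Slc6a11. Centring arrays on their median moved the median of all genes from 0.013 to 0.055, and Slc32a1 from 0.031 to 0.089; the mean of its probesets gave 0.12. Precision is limited by 3 arrays a group.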
